A study of Mus musculus with 20 samples.

Results

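The comparison described here is the last step of a time series in tenocytes, the resident fibroblasts of tendon: cells held in insulin-like growth factor 1 (IGF1) for 24 h against cells held in it for 6 h. It covers 8 of the 20 libraries of the series, chosen by the time given in their titles, 4 at 24 h and 4 at 6 h, and every gene with enough counts to test. The cells were isolated from tail tendons of wild-type adult C57Bl/6 mice, and both groups received IGF1 at 100 ng/mL, so the groups differ in the time for which they received it. The other 12 libraries are the samples at 0, 1 and 2 h. No culture kept without IGF1 for 6 h or 24 h is analysed here, so time with IGF1 and time in culture cannot be told apart. The labels do not say whether replicates came from separate mice or cultures, and the p-values then measure only the spread between these samples, which may be technical. The comparison asks what separates a growth phase at 6 h from a mitotic and matrix phase at 24 h.

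IGF1 binds the receptor tyrosine kinase Igf1r, which signals through Irs adaptor proteins to PI3 kinase and AKT and through RAS to ERK. AKT keeps FoxO transcription factors out of the nucleus and activates mTOR complex 1, which drives ribosome production, protein and nucleotide synthesis, glycolysis and sterol synthesis. A cell that leaves quiescence first grows and passes through G1, then copies its DNA in S phase, and last expresses the genes of G2 phase and mitosis, which are held off earlier in the cycle by the DREAM repressor complex bound to CHR elements in their promoters. In tendon, IGF1 is known for raising tenocyte proliferation and collagen synthesis.

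Of 29986 genes in the count table, 14420 had enough counts to test, and they held 99.9% of all counts. Total counts were 13734425 to 16762285 in the 24 h libraries and 17017386 to 20429931 in the 6 h libraries, and the groups did not overlap (exact permutation test of 4 against 4, two-sided p = 0.0286, the smallest this design allows); the part of this depth difference in the results was not tested. The scaling factors from the trimmed mean of M values were also apart, 1.044 to 1.054 at 24 h and 0.9934 to 1.018 at 6 h. The same permutation test gave p = 0.0286, and the part of this difference in the results was not tested. The mitochondrial share of counts was 1.33 to 1.47% at 24 h and 1.38 to 1.55% at 6 h. The first principal component of the 8 libraries carried 49.4% of their variance and separated the times. The second carried 14.03% and set replicate 4 at 24 h, at -36.35, apart from the other libraries, which lay between -6.159 and 16.61. The 13 listed tenocyte and fibroblast markers, all tested, summed to 73470 to 78180 CPM at 24 h and 63200 to 71070 CPM at 6 h. CPM are read counts scaled to a common library size by the trimmed mean of M values. Col1a1 and Col1a2 held most of the sum (means of 32140 and 23900 CPM at 24 h), so it cannot tell tenocytes from other fibroblasts. By the test described below, 4 of the 13 were higher at 24 h and 3, Scx, Fmod and Thbs4, lower. In bulk samples, fewer cells of a type and less RNA per cell cannot be told apart.

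The step from 6 h to 24 h moved genes in both directions, and the larger moves were upward. With edgeR's quasi-likelihood test and a Benjamini-Hochberg adjusted p under 0.05, 2537 genes were higher and 2629 lower at 24 h than at 6 h, together 35.8% of the genes tested. At 2-fold and beyond the directions were uneven: 439 called genes were up by 2-fold or more and 190 down, and 81 against 24 passed 4-fold. The median log2 fold change over all tested genes was 0.0107. Without replicate 4 at 24 h, 4618 genes were called in place of 5166. Below, gene lists are described by their counts of called members and their median. Where a list's count at 24 h against 6 h is given as 0 in a direction, edgeR had 0 members there at an unadjusted p under 0.05 and DESeq2 called 0, unless other numbers are given.

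**Figure D1:**
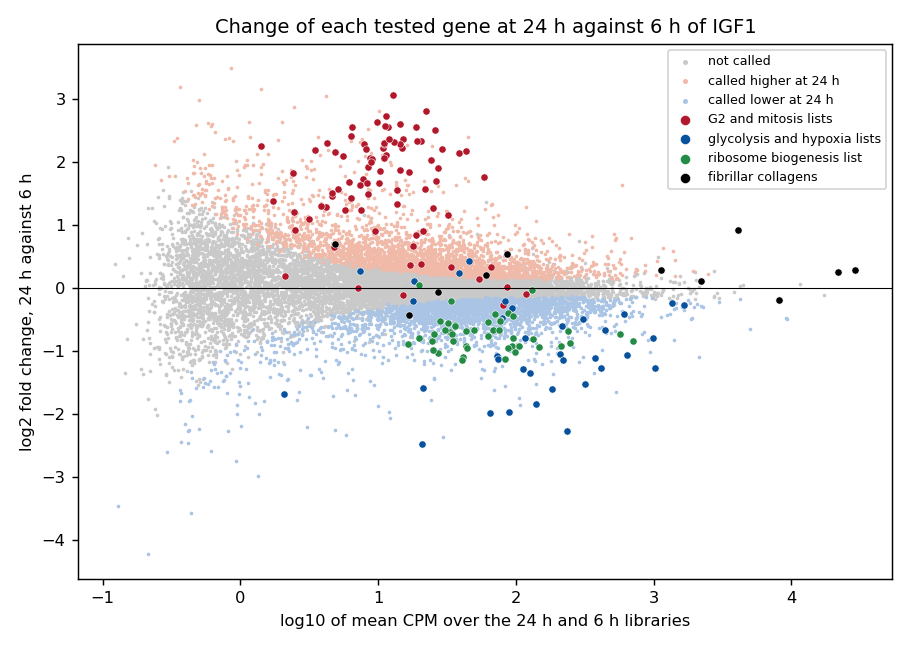
Log2 fold change at 24 h against 6 h (vertical axis) of each of the 14420 tested genes, against the log10 of its mean CPM over the 8 libraries (horizontal axis), with 4 sets of listed genes drawn as larger points. The genes of G2 and mitosis lie together near the top, those of glycolysis and hypoxia and of ribosome biogenesis below 0, and the fibrillar collagens at the highest levels spread around and above 0.

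The ends of the ranking carried different kinds of genes. Among the 15 called genes with the largest rise, at a mean of at least 5 CPM at 24 h and with no overlap between the groups, 11 were on the lists of mitotic genes: Ccnb2, Cenpf, Cenpa, Kif2c, Aspm, Plk1, Hmmr, Pttg1, Bub1b, Kif20a and Ndc80. The others were Knstrn, a kinetochore gene (2.801), the centrosome kinase Nek2 (2.53), Fam84a (3.04) and Klhl24, a ubiquitin ligase adaptor. Among the 15 called genes with the largest fall were Egln3, Egln1, Bnip3, Slc16a3 and Pfkfb3, all known targets of hypoxia-inducible factor, with Apln, the ligand of the apelin receptor (-2.36), the receptor Gpr35 (-2.34), the membrane-anchored semaphorin Sema7a (-2.25) and the AP-1 subunit Fosl1.

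Genes of G2 phase and mitosis rose nearly as a body. Of the 84 tested members of 4 lists, 16 of 18 genes of mitotic entry, 23 of 25 of the kinetochore and spindle checkpoint, 26 of 26 of spindle motors and cytokinesis and 12 of 15 of condensins, separase and the anaphase-promoting complex were called higher at 24 h, where 17.6% of all tested genes were called higher and 18.2% lower. The median log2 fold changes of the 4 lists were 1.52, 1.68, 2.15 and 0.91, against 0.0107 over all genes.

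Ccnb2 encodes cyclin B2 (chr9:70407692-70421547, minus strand; gene positions are GENCODE M21, GRCm38), which activates Cdk1 at the entry to mitosis, and had the largest log2 fold change of the genes named here. It had 25.9, 22.98, 24.3 and 18.5 CPM in the 24 h libraries, against 2.81, 2.97, 2.47 and 2.73 CPM in the 6 h libraries. The groups were far apart, with replicate 4 the lowest at 24 h (log2 fold change 3.06 ± 0.16, adjusted p = 6.29e-14; here and below, the error of a log2 fold change is its SE). Ccnb1, the other B-type cyclin, had 17.2, 18.9, 18.6 and 16.6 CPM at 24 h, against 3.896, 3.14, 3.66 and 4.62 CPM at 6 h, again without overlap (2.21 ± 0.17, adjusted p = 5.52e-11). Plk1, the polo-like kinase that drives centrosome maturation and mitotic exit, had 17.9, 23.1, 19.7 and 16.2 CPM at 24 h, against 3.11, 3.02, 3.603 and 3.202 CPM at 6 h (2.57 ± 0.15, adjusted p = 5.31e-13). Every 24 h library of these 3 genes held at least 3 times the level of any 6 h library. Mki67, the proliferation antigen that coats mitotic chromosomes, had 76.2, 72.5, 76.3 and 57.9 CPM at 24 h, against 15.6, 13.6, 15.9 and 17.7 CPM at 6 h, and 24 h replicate 4 was the lowest of its group, as it was for Ccnb2 and Plk1 (2.17 ± 0.16, adjusted p = 1.77e-09). Rises were also called for Top2a, the topoisomerase that untangles chromosomes (1.76), Ccna2 (cyclin A2, 1.87), Cdk1 itself (1.27) and the phosphatase Cdc25c (2.19).

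At the kinetochore, the protein plate that ties chromosomes to microtubules, Cenpa, the histone H3 variant of the centromere, had 20.4, 20.03, 20.5 and 18.4 CPM at 24 h, against 3.45, 2.33, 3.66 and 2.57 CPM at 6 h (2.72 ± 0.17, adjusted p = 1.96e-12). The outer kinetochore genes Cenpf (2.81), Cenpe (2.33) and Ndc80 (2.403) and the checkpoint kinase Bub1b (2.55) rose by similar amounts. Zwint, which links the kinetochore to the checkpoint, was the 1 member of the 4 lists called lower, with 72.9, 75.05, 73.3 and 72.4 CPM at 24 h, against 86.9, 86.2, 89.97 and 90.1 CPM at 6 h (-0.27 ± 0.065, adjusted p = 0.00187). At 6 h it stood at a mean of 88.3 CPM, above every one of the 77 members of the 4 lists that rose; the highest of those was the condensin subunit Smc4, at 58.5 CPM at 6 h and 73.5 CPM at 24 h (0.33).

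Of the spindle genes, Kif20a, a kinesin of the central spindle, had 46.3, 47.96, 42.8 and 38.3 CPM at 24 h, against 7.54, 7.68, 7.64 and 7.93 CPM at 6 h (2.51 ± 0.092, adjusted p = 2.43e-17). Its exons share 29.3% of their bases with Cdc23 on the opposite strand, and the use of strand in counting is not given in the sources used here, so reads of the 2 genes may not have been told apart. The kinesin Kif2c (2.63), the spindle pole protein Aspm (2.59), Hmmr, which binds hyaluronan and spindle microtubules (2.55), and Ckap2l (2.36) rose alike. Of the genes that end mitosis, Pttg1, securin, had 10.7, 11.4, 11.8 and 10.01 CPM at 24 h, against 2.17, 1.803, 1.88 and 1.63 CPM at 6 h (2.55 ± 0.17, adjusted p = 5.42e-12). Ube2c (2.36) and Cdc20 (2.33), the ubiquitin-conjugating enzyme and the activator of the anaphase-promoting complex, and the condensin subunits Ncaph (1.67) and Ncapg (1.63) also rose.

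The spindle genes lay near their 0 h level at 6 h. Against 0 h, the 26 spindle genes had a median log2 fold change of 0.055 at 6 h, with 1 gene called higher and 1 lower, where 20.6% of all tested genes were called higher and 19.6% lower. At 24 h against 0 h the median was 2.22, with all 26 called higher, where 12.7% of all tested genes were called higher and 13.2% lower. The comparisons with 0 h share the 24 h or the 6 h libraries with the step described here, and share the 0 h libraries with each other, so their values are given side by side only.

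The promoters of these genes are shown because the members rose together and share short motifs in this window. The sequences are RefSeq's, build GRCm38.p6, from 250 bases before the start of transcription to 50 after it. Capitals mark the CHR element (TTTGAA or TTCGAA, either strand) and the CCAAT box of the factor NF-Y (CCAAT, either strand), which do not overlap each other in these 3 promoters. They lie at chr9:70421505-70421804, minus strand (Ccnb2), chr7:122159185-122159484, plus strand (Plk1) and chr5:30666636-30666935, plus strand (Cenpa).
Ccnb2: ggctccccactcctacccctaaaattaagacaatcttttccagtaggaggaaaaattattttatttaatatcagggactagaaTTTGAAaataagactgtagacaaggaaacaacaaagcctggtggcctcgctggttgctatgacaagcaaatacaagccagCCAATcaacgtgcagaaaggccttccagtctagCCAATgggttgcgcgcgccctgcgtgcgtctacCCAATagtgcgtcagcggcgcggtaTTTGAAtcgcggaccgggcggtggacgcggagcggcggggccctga
Plk1: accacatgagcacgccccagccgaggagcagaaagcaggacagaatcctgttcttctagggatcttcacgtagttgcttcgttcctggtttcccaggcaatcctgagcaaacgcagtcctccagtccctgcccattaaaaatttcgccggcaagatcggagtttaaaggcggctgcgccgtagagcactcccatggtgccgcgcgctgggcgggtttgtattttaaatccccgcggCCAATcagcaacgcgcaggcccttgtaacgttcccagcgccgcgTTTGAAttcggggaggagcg
Cenpa: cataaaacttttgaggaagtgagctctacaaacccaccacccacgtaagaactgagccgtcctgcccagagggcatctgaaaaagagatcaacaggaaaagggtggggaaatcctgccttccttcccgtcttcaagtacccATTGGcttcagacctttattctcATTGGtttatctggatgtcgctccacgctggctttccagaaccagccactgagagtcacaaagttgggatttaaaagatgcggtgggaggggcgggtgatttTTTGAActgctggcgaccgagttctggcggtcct

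Of the 84 tested members of the 4 lists, 71 had at least 1 promoter in the table, with 80 promoters in all. A CHR match was found in 56 of the 80 (70.0%, 95% Wilson interval 59.2 to 78.9%), against 19.2% of all 32851 promoters and 13.73% of the 13048 promoters of tested genes. A CCAAT box was found in 57 of the 80 (71.2%, interval 60.5 to 80.0%), against 37.4% of all promoters. In the 150 bases from 100 before to 50 after the start, the shares were 61.2% for CHR, against 8.59% of all promoters, and 57.5% for CCAAT, against 23.4%. The 72 CHR matches had their median first base 16 bases before the start and the 115 CCAAT matches 67 bases before it. A match describes the letters in this window and is no measure of a factor's binding. Counted by gene, 52 of the 71 held a CHR match and 50 a CCAAT box. Some genes have more than 1 promoter, with windows that overlap, so a site can be counted more than once. Here and below, the intervals take promoters as independent and may be too narrow.

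**Figure D2:**
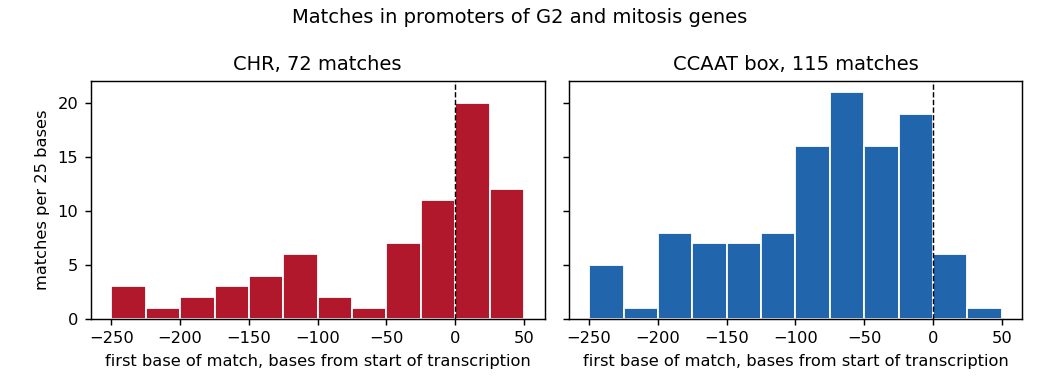
Number of matches per 25 bases (vertical axis) of the CHR element (left) and the CCAAT box (right) in 80 promoters of G2 and mitosis genes, by the distance of the match's first base from the start of transcription in bases (horizontal axis, dashed line at the start). CHR matches crowd around and just after the start, and CCAAT matches in the 100 bases before it.

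Of 40 tested genes of DNA replication, 17 were called higher and 1 lower, with a median log2 fold change of 0.27. Pole, the catalytic subunit of the leading-strand polymerase, had 16.04, 13.1, 13.1 and 12.01 CPM at 24 h, against 7.397, 6.69, 6.35 and 7.72 CPM at 6 h (0.94 ± 0.15, adjusted p = 1.39e-05). Mcm10, needed to start the replication fork, had 6.97, 7.06, 4.57 and 6.97 CPM at 24 h, against 3.25, 2.68, 3.603 and 3.94 CPM at 6 h, with 24 h replicate 3 well below the other three of its group (0.92 ± 0.23, adjusted p = 0.00231). Mcm7, a subunit of the replicative helicase, rose by 0.62, whereas Mcm2, another subunit, had 28.4, 29.3, 32.2 and 30.3 CPM at 24 h and 30.7, 26.2, 28.1 and 30.2 CPM at 6 h, with overlapping groups (0.062 ± 0.091, adjusted p = 0.643). The 1 gene called lower was Cdt1, which loads the helicase in G1 (-0.30 ± 0.11, adjusted p = 0.0366), a call that did not hold without any 1 library but 6 h replicate 2 (then adjusted p = 0.0583 to 0.103).

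Against 0 h, 24 of the 40 replication genes were called higher at 6 h (median 0.49) and 36 at 24 h (median 0.70). Of the mitotic lists, 4 of 18 genes of mitotic entry and 4 of 25 of the kinetochore were called higher at 6 h. So were 4 of 15 of condensins and 1 of 26 spindle genes. In the same order 2, 0, 1 and 1 were called lower, where 20.6% of all tested genes were higher and 19.6% lower. The difference between the lists was not tested. Mcm2 averaged 17.03 CPM at 0 h, 28.8 CPM at 6 h and 30.04 CPM at 24 h. An E2F site (TTTCGCGC, TTTGGCGC or TTTCCCGC, either strand) was found in 14 of 37 promoters of 32 replication genes (37.8%, interval 24.1 to 53.9%). The share was 1.84% over all promoters, 3.26% over those of tested genes and 8.8% over the 80 promoters of G2 and mitosis genes. The CHR element was found in 6 of the 37 (16.2%), between the 19.2% of all promoters and the 13.73% of those of tested genes. The 2 searches in the other list were added after the first shares were seen. Mcm7 is shown as an example, with the 1 of its 2 promoters that holds E2F sites (chr5:138171834-138172133, minus strand), in capitals. That promoter also holds a CHR match, 173 bases before the start, which is left in small letters.
Mcm7: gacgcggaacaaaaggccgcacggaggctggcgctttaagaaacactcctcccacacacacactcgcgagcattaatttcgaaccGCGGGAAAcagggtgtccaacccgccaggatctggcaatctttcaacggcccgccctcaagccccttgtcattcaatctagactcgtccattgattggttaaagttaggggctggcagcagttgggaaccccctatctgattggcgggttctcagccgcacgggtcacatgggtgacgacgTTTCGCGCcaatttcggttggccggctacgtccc

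Of 14 cyclins, kinases and E2F factors of G1, 6 were called lower, 1 higher and 7 neither at 24 h, with a median of -0.16; over all tested genes 18.2% were lower. Ccnd1, cyclin D1, which couples growth factor signals to the cell cycle, had 310.02, 301, 319 and 289.5 CPM at 24 h, against 392, 352, 403 and 384 CPM at 6 h, without overlap (-0.33 ± 0.081, adjusted p = 0.00214). Cyclin D3 (Ccnd3, -0.40), its partner kinase Cdk6 (-0.46), cyclin E2 (Ccne2, -0.59) and the phosphatase Cdc25a (-0.50) fell as well. E2f7, a repressor of the E2F family, was the 1 that rose (0.86 ± 0.19, adjusted p = 0.000902). Against 0 h, 12 of the 14 were called higher at 6 h and 10 at 24 h.

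Many cell cycle brakes and repair genes rose. Of 10 cyclin-dependent kinase inhibitors and RB family genes, 7 were called higher and 0 lower. Over all tested genes 17.6% were higher and 18.2% lower. Against 0 h this list had a median of -0.35 at 6 h, with 1 called higher and 5 lower. At 24 h the median was -0.021, with 3 called higher and 2 lower. Rbl2 encodes p130, the pocket protein of the DREAM complex, and had 42.5, 46.7, 41.8 and 43.9 CPM at 24 h, against 21.1, 20.2, 22.7 and 22.4 CPM at 6 h (1.02 ± 0.089, adjusted p = 7.56e-10). It averaged 47.7 CPM at 0 h, 43.5 at 1 h and 31.8 CPM at 2 h, so that the 6 h mean was the lowest of the 5 times. The inhibitors Cdkn1b (p27, 0.42), Cdkn1a (p21, 0.40) and Cdkn2d (p19, 0.86) rose too. Of 17 genes of homologous recombination and fork protection, 10 rose, among them Fancd2 (2.01) and Fanci (1.75), and Tipin, of the fork protection complex, fell (-0.43). Of 21 p53 targets, 11 rose and 2 fell. Trp53inp1, a stress protein of autophagy and cell death, had 182, 162, 162 and 162 CPM at 24 h, against 63.96, 59.4, 79.6 and 72.96 CPM at 6 h (1.27 ± 0.089, adjusted p = 1.13e-11), and the death genes Perp (1.18), Pmaip1 (1.04) and Bbc3 (1.01) rose by about as much. The 2 that fell were Plk3, a stress kinase (-0.63), and the nuclease Aen (-0.18), the second a call that did not hold without any 1 library but 6 h replicate 2 (then adjusted p = 0.0533 to 0.0945).

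Genes of ribosome production fell. Of 45 genes of ribosome biogenesis, the making of ribosomal RNA and its assembly into subunits, 42 were called lower and 0 higher at 24 h, with a median log2 fold change of -0.74. Nop56, a core protein of box C/D small nucleolar particles, had 52.9, 52.001, 52.8 and 52.9 CPM at 24 h, against 123, 117, 108 and 112 CPM at 6 h (-1.13 ± 0.06, adjusted p = 4.66e-14). Ncl, nucleolin, the main protein of the nucleolus, had 536, 489, 482 and 507 CPM at 24 h, against 902, 936, 846 and 934 CPM at 6 h (-0.85 ± 0.059, adjusted p = 8.61e-12). In both, every 24 h library lay below every 6 h library, with a narrow spread. Rrp12 (-1.14), Ppan (-1.096), Grwd1 (-1.02) and the RNA methyltransferase Nop2 (-1.01) fell by a like amount. Against 0 h the list stood at a median of 0.68 at 6 h, with 42 of 45 called higher, and at -0.089 at 24 h, with 1 called higher and 8 lower. Nop56 averaged 56.4 CPM at 0 h, 115 CPM at 6 h and 52.6 CPM at 24 h.

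Among the genes that feed and use ribosomes, 18 of 25 translation factors fell, among them Eif6, which keeps the large subunit free (-0.76), the cap-binding protein Eif4e (-0.71) and its partner helicase Eif4a1 (-0.70). Eef2 (0.22) and Eif4b (0.35) were the 2 that rose. Of 22 genes of nucleotide synthesis 18 fell and 1, Prps2, rose (0.21), a call that did not hold without 24 h replicates 1 or 2 or 6 h replicates 1 or 2 (then adjusted p = 0.0712 to 0.131). Mthfd1l, of mitochondrial one-carbon metabolism, had 78.05, 74.02, 71.7 and 82.05 CPM at 24 h, against 173, 178, 157 and 170.01 CPM at 6 h (-1.15 ± 0.061, adjusted p = 4.52e-14), and the pyrimidine enzymes Ctps (-0.80) and Cad (-0.74) fell. Of 16 genes of the Myc network and polyamine synthesis 8 fell and 4 rose. Myc, the transcription factor that drives many of these genes, had 31.8, 38.3, 35.2 and 34.9 CPM at 24 h, against 52.2, 53.7, 56.7 and 53.1 CPM at 6 h (-0.62 ± 0.072, adjusted p = 1.03e-07), and Srm, spermidine synthase, fell by 1.04 on the log2 scale. The 4 that rose were 3 of the Mxd repressors that compete with Myc for Max, Mxd1 (0.83), Mxd3 (1.63) and Mxd4 (0.52), and Sat1, which breaks polyamines down (0.27), the last a call that did not hold without any 1 library but 24 h replicate 3 or 6 h replicate 3 (then adjusted p = 0.0504 to 0.1). Of 20 cytosolic tRNA synthetases 10 fell, led by Farsa (-0.65), and 2 were called higher. Of these, Aars (0.15) had a call that did not hold without any 1 library but 6 h replicate 4 (then adjusted p = 0.0526 to 0.118). Sars (0.17) had a call that did not hold without 24 h replicates 2 or 4 or 6 h replicates 1 or 2 (then adjusted p = 0.0534 to 0.0855). Of 76 cytosolic ribosomal protein genes, whose reads can be split with their many pseudogenes, 29 were called lower and 1, Rpl13a (0.41), higher, with a median of -0.21; the count of lower calls ran from 15 to 60 over the alternative settings.

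The E box CACGTG, the letters bound by Myc, was found in 10 of 48 promoters of 39 ribosome biogenesis genes (20.8%, interval 11.7 to 34.3%), against 7.15% of all promoters and 9.76% of those of tested genes. The promoter of Nop2 is shown with its E box in capitals (chr6:125131633-125131932, plus strand).
Nop2: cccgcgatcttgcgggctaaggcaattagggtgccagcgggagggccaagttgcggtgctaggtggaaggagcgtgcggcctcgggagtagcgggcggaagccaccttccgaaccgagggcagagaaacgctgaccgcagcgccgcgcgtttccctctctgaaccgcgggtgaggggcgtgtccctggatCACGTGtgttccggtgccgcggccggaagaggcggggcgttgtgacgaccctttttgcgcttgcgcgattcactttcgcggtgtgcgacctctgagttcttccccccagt

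**Figure D3:**
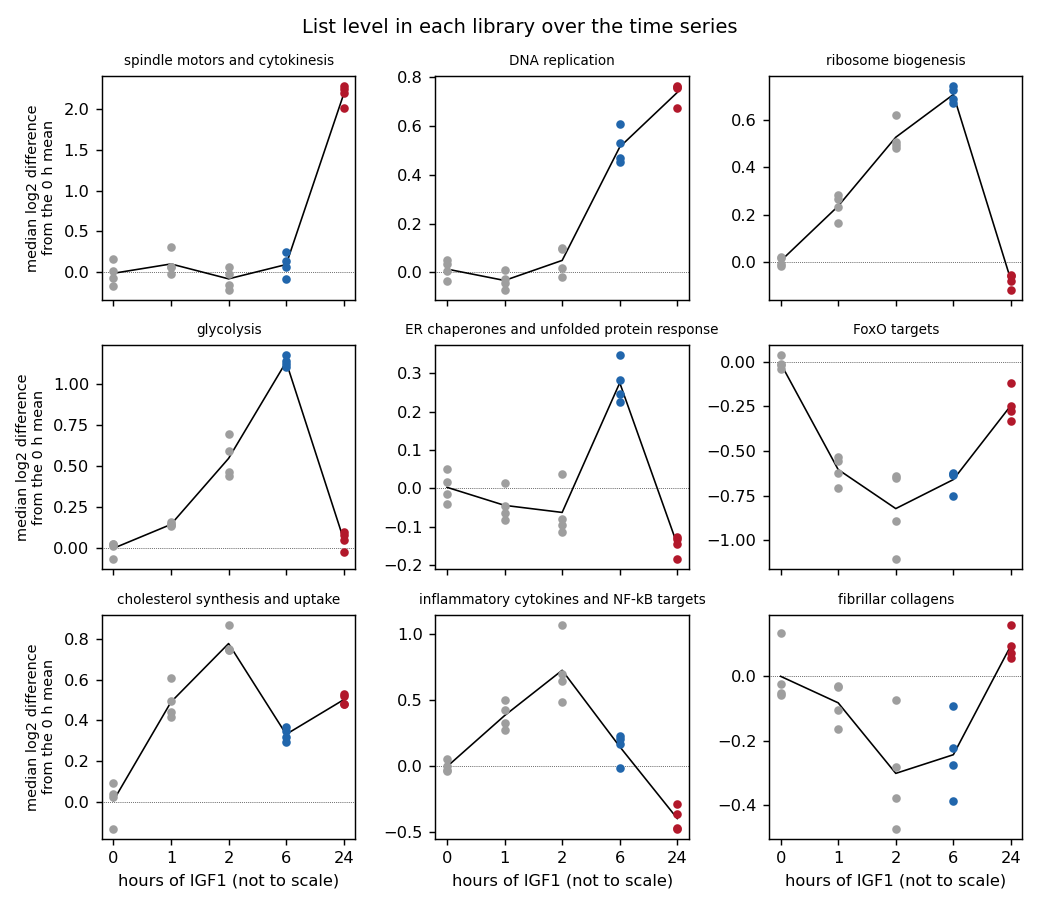
Level of 9 gene lists in each of the 20 libraries, as the median over members of the log2 CPM minus its mean at 0 h (vertical axis), by hours of IGF1 (horizontal axis, not to scale), with the 6 h libraries in blue, the 24 h libraries in red and a line through the means. Spindle genes stand near 0 until 6 h and between 2.01 and 2.28 at 24 h, whereas ribosome biogenesis and glycolysis peak at 6 h and lie near 0 at 24 h.

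Of all lists, glycolysis had the lowest median. Of 19 glycolysis genes 16 were called lower, 13 of them by at least 2-fold, and the median log2 fold change was -1.12, while Pfkm (0.23) and Aldoc (0.42) rose. Slc16a3, the lactate exporter MCT4, had 69.3, 88.7, 88.7 and 77.7 CPM at 24 h, against 412, 398, 395 and 365 CPM at 6 h (-2.27 ± 0.088, adjusted p = 1.05e-16). Pfkfb3, which makes the activator of phosphofructokinase, had 33.8, 33.7, 36.7 and 40.2 CPM at 24 h, against 141, 138, 137 and 148 CPM at 6 h (-1.96 ± 0.13, adjusted p = 2.02e-10). For both, the highest 24 h library lay far below the lowest 6 h library. The glucose transporter Slc2a1 (-1.599), the phosphofructokinase subunit Pfkl (-1.53) and hexokinase 2 (Hk2, -1.35) fell by more than 2-fold each. The summed level of the list was 4749 to 5165 CPM at 24 h and 9298 to 9419 CPM at 6 h.

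Of 16 hypoxia response genes 14 fell and 0 rose. Egln3 (chr12:54178981-54203860, minus strand), a prolyl hydroxylase that marks hypoxia-inducible factor for decay and is itself its target, had 8.23, 6.27, 5.66 and 5.23 CPM at 24 h, against 36.4, 34.7, 36.5 and 32.9 CPM at 6 h, the lowest log2 fold change of the genes named here (-2.47 ± 0.16, adjusted p = 3.79e-12). Its relative Egln1 had 58.4, 62.1, 70.4 and 54.999 CPM at 24 h, against 216, 218, 232 and 211 CPM at 6 h (-1.83 ± 0.073, adjusted p = 1.18e-16). Bnip3, a mitophagy receptor, fell by 1.98 on the log2 scale and Ankrd37 by 1.68. Egln3 averaged 4.87, 7.201, 18.9, 35.1 and 6.35 CPM at 0, 1, 2, 6 and 24 h, and Slc16a3 averaged 96.9, 125, 194, 393 and 81.1 CPM. Against 0 h the glycolysis list had a median of 1.13 at 6 h, with 16 of 19 called higher, and 0.045 at 24 h, with 5 called higher and 3 lower. Oxygen in the cultures is not given in the labels. Of 29 respiratory chain genes 6 fell (20.7%, near the 18.2% of all tested genes), led by Cycs, cytochrome c (-0.68), and 0 rose (3 higher at an unadjusted p under 0.05, 0 by DESeq2). The 6 became 3 without 24 h replicate 2 or 3 or 6 h replicate 2, and 13 with the 8 libraries alone. Of 10 targets of Nrf2, the factor of the oxidant response, 7 fell, led by Gclc, of glutathione synthesis (-0.48), and Nqo1 rose (0.40).

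The core of the hypoxia response element, ACGTG on either strand, was searched after the fall of these lists was seen. It was found in 27 of 51 promoters of 33 glycolysis and hypoxia genes (52.9%, interval 39.5 to 65.9%), against 19.6% of all promoters and 25.04% of those of tested genes; in the 150 bases around the start the shares were 37.3% and 11.5% of all promoters. The core also lies within the E box. The promoter of Slc16a3 holds 2 copies, in capitals (chr11:120948817-120949116, plus strand).
Slc16a3: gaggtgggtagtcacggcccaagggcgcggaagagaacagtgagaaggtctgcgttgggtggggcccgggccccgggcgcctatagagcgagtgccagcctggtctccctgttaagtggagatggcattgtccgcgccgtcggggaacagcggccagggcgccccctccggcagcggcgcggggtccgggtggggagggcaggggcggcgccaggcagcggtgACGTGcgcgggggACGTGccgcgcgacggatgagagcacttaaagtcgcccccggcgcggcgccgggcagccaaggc

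Genes of protein folding, export and breakdown fell. Of 21 endoplasmic reticulum (ER) chaperones and unfolded protein response genes 18 were called lower and 0 higher, of 23 genes of secretory transport 17 and 0, of 20 heat shock proteins 16 and 0, and of 31 proteasome genes 21 and 0. Hspa5 encodes BiP, the main ER chaperone, and had 1435, 1350, 1347 and 1371 CPM at 24 h, against 2843, 2820, 3039 and 3029 CPM at 6 h (-1.09 ± 0.059, adjusted p = 6.30e-14). Hyou1 (-1.09), Creld2 (-1.096) and Manf (-1.03), all induced by ER stress, fell by nearly the same amount, and Xbp1, whose spliced form drives many of them, fell by 0.79. Hspa8, the constitutive cytosolic chaperone, had 627, 609, 621 and 638 CPM at 24 h, against 1254, 1263, 1244 and 1290 CPM at 6 h (-1.02 ± 0.056, adjusted p = 7.93e-14), and the mitochondrial chaperonin Hspd1 fell (-0.94). For the ER list the median against 0 h was 0.33 at 6 h and -0.15 at 24 h, with 9 of 21 called lower at 24 h. Of 26 targets of Atf4 and genes of amino acid supply, 5 rose, such as Trib3 (0.62), and 5 fell, such as the hormone Stc2 (-1.03), which is 19.2% each way and near the 17.6% and 18.2% of all tested genes.

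The ER stress element was found in 8 of 18 promoters of the ER list (44.4%, interval 24.6 to 66.3%), against 0.12% of all promoters. In the 150 bases around the start the share was 11.1%: the median copy lay 126 bases before the start. The copy in the Hspa5 promoter is in capitals (chr2:34771840-34772139, plus strand).
Hspa5: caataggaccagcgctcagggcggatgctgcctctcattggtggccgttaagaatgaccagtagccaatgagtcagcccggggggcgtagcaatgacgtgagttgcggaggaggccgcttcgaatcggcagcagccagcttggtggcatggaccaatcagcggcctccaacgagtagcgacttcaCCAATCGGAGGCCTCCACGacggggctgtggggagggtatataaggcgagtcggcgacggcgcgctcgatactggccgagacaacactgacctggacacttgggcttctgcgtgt

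Among lipid genes most calls were of higher levels. Of 24 genes of cholesterol synthesis and uptake 11 were called higher and 1 lower. Insig1, which holds the sterol sensor Scap in the ER, had 229.8, 233, 219 and 204 CPM at 24 h, against 131, 119.9, 132 and 126 CPM at 6 h (0.80 ± 0.062, adjusted p = 8.04e-11). Tm7sf2 (1.098) and Mvd (0.77), enzymes of the pathway, rose. Of 14 genes of fatty acid synthesis 9 rose and 0 fell, led by Acsl3, which activates fatty acids (0.87), and the desaturase Scd2 (0.64). Of 8 genes of sterol efflux and LXR targets 4 rose and 1, the phosphodiesterase Smpdl3a, fell (-0.26). Abca1, the cholesterol exporter, had 39.3, 40.2, 38.5 and 43.5 CPM at 24 h, against 8.38, 9.66, 8.28 and 7.82 CPM at 6 h (2.24 ± 0.21, adjusted p = 1.18e-07), after an average of 32.99 CPM at 0 h, and Mylip, a ubiquitin ligase, rose by 1.202. The sterol element searched was found in 0 of 19 promoters of 16 cholesterol genes, which says only that these exact letters are not in this window. Of the adipocyte markers 3 were tested and 0 called, and they summed to 6.77 to 10.3 CPM at 24 h and 8.53 to 13.9 CPM at 6 h.

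Targets of FoxO factors rose at 24 h. Of 22, 16 were called higher and 1 lower, with a median of 0.44. Klhl24 had 79.3, 76.8, 67.9 and 77.3 CPM at 24 h, against 12.5, 12.3, 16.3 and 16.1 CPM at 6 h (2.397 ± 0.15, adjusted p = 1.03e-10). Pik3ip1, an inhibitor of PI3 kinase, had 32.8, 38.97, 34.1 and 38.1 CPM at 24 h, against 12.4, 10.004, 14.04 and 13.3 CPM at 6 h (1.53 ± 0.12, adjusted p = 1.53e-10). The groups of both genes were far apart. The death gene Bcl2l11 (0.98) and Ccng2, a cyclin of quiescent cells (0.90), rose as well. Against 0 h the list stood at -0.64 at 6 h, with 15 of 22 called lower, and at -0.22 at 24 h, with 8 lower and 5 higher. Klhl24 averaged 102 CPM at 0 h, 14.3 CPM at 6 h and 75.3 CPM at 24 h. A FoxO element (TGTTTAC, either strand, searched after these values were seen) was found in 4 of 22 promoters of 19 members (18.2%, interval 7.3 to 38.5%), against 3.65% of all promoters and 2.61% of those of tested genes; in the 150 bases around the start the share was 4.5%, against 1.62% of all promoters. Of 21 autophagy and lysosome genes 12 rose, such as Gabarapl1 (0.99) and Map1lc3b (0.54), both of the autophagosome, and 1, the protease Ctsl, fell (-0.23).

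Of 20 genes of the IGF axis 8 rose and 4 fell, or 40% and 20%, against 17.6% and 18.2% of all tested genes. The higher count was 6 without 24 h replicate 1 and 9 with the 8 libraries alone. Igf1r, the receptor and the 1 listed FoxO target called lower, had 76.7, 79.1, 78.8 and 80.2 CPM at 24 h, against 116, 105, 109.98 and 104 CPM at 6 h (-0.46 ± 0.085, adjusted p = 9.20e-05), and averaged 192 CPM at 0 h. The tenocytes' own Igf1 had 136, 133, 133 and 141 CPM at 24 h, against 186, 196, 185 and 182 CPM at 6 h (-0.46 ± 0.059, adjusted p = 5.33e-07). Irs2, the adaptor under feedback control, was called higher at 12.5 CPM on average at 24 h, against 8.91 CPM at 6 h (0.49 ± 0.15, adjusted p = 0.0115), far below its 37.9 CPM at 0 h; the call was one that did not hold without 6 h replicate 4 (then adjusted p = 0.054). Stc1 (-1.42) and Stc2 (-1.03), stanniocalcins that inhibit the protease Pappa, were the other two that fell. Of the binding proteins that hold IGF1 outside the cell, Igfbp5, Igfbp3 and Igfbp4 (0.27) were called higher, and Igfbp2 (-0.043), Igfbp6 (-0.012) and Igfbp7 (-0.20) had no call. Igfbp5 had 850.2, 801, 946 and 954 CPM at 24 h, against 268, 329, 276 and 275 CPM at 6 h (1.63 ± 0.30, adjusted p = 0.000414), and averaged 61.6 CPM at 0 h. Igfbp3 had 573, 546, 649.97 and 595 CPM at 24 h, against 429.7, 454, 356 and 329 CPM at 6 h (0.59 ± 0.10, adjusted p = 9.10e-05). In Igfbp5 and Igfbp3, each 24 h library was above each 6 h library.

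Among early response and inflammatory genes most calls were of lower levels. Of 24 immediate early genes 9 fell, 3 rose and 12 had no call, and of 15 ERK feedback genes 5 fell and 0 rose. Fosl1 had 9.97, 13.5, 10.9 and 9.36 CPM at 24 h, against 40.7, 36.1, 38.9 and 34.4 CPM at 6 h (-1.77 ± 0.12, adjusted p = 5.03e-12), and 57.2% of its exonic bases are shared with Ccdc85b on the opposite strand. Maff (-1.21), Klf10 (-0.79) and the ERK phosphatase Dusp5 (-1.17) fell too. Of 23 inflammatory cytokines and NF-kB targets 13 fell and 0 rose. The monocyte chemokine Ccl2 had 39.1, 41.5, 43.97 and 43.4 CPM at 24 h, against 114, 128, 122 and 129.7 CPM at 6 h (-1.56 ± 0.10, adjusted p = 1.83e-11), and the prostaglandin synthase Ptgs2 (-1.43) and the NF-kB inhibitor Tnfaip3 (-1.47) fell by a like amount. The 13 macrophage markers tested summed to 203.2 to 366.1 CPM at 24 h and 291.9 to 466.5 CPM at 6 h, with 0 of 13 called and overlapping ranges. Of the 13, 12 had a fold change below 0, with a median of -0.31; 1 was higher and 0 lower at an unadjusted p under 0.05, DESeq2 called 0, and 4 were called lower with no count filter. Their part in the inflammatory genes was not tested. Of 22 growth factors and receptors 6 fell and 4 rose, or 27.3% and 18.2%, against 18.2% and 17.6% of all tested genes; the higher count was 2 without 24 h replicate 1 or 6 h replicate 3 and 7 with the 8 libraries alone. The ligands Ereg (-1.43) and Hbegf (-1.29), both of the EGF receptor, fell. Of 24 interferon response genes 5 rose (20.8%, near the 17.6% of all tested genes), led among those above 5 CPM by Ifit2 (1.04), and 0 fell (1 lower at an unadjusted p under 0.05, 0 by DESeq2). The count of 5 was 2 without 24 h replicate 4, 3 without 6 h replicate 1, 3 or 4 and 8 without 6 h replicate 2. Against the 0 h mean the list's median was 0.73 in 24 h replicate 4 and -0.31 to 0.16 in the other 24 h libraries, and -0.74 to 0.69 over the 6 h libraries.

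Of 18 clock genes 5 rose and 8 fell, or 27.8% and 44.4%, against 17.6% and 18.2% of all tested genes. Dbp had 12.3, 12.6, 8.86 and 8.39 CPM at 24 h, against 1.68, 1.45, 2.47 and 2.73 CPM at 6 h (2.33 ± 0.21, adjusted p = 1.56e-09), and Per3 had 19.4, 19.5, 20.9 and 18.8 CPM at 24 h, against 4.98, 5.18, 5.001 and 5.301 CPM at 6 h (1.94 ± 0.13, adjusted p = 2.44e-12). Both lie on the arm of the clock that is driven directly by the Clock and Arntl dimer, as does Nr1d2 (1.23); Tef (1.004) rose with them and Npas2, a partner of Arntl, fell (-0.93). Dbp shares 18.01% of its exonic bases with Sphk2 on the opposite strand. The time of day of each harvest is not given in the labels, and it cannot be told apart from the time with IGF1.

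Genes of the TGF-beta pathway and targets of the actin-regulated factors SRF and YAP were called lower more often than higher. Of 35 ligands, receptors, antagonists and targets of TGF-beta and BMP 13 fell, 3 rose and 19 had no call, with a median of -0.14. These are 37.1% lower and 8.57% higher, against 18.2% and 17.6% of all tested genes. The BMP antagonist Grem1 (-1.44) and the BMP target Id1 (-0.87) fell, while the ligand Tgfb1 averaged 31.7 ± 1.92 CPM at 24 h and 28.1 ± 2.13 CPM at 6 h (SD, n = 4 each), with overlapping groups (0.17 ± 0.087, adjusted p = 0.124). Of 19 actin and SRF or YAP targets 14 fell and 0 rose. Ankrd1, a YAP target, had 41.8, 44.6, 37.6 and 39.8 CPM at 24 h, against 94.7, 90.4, 113 and 98.7 CPM at 6 h (-1.28 ± 0.11, adjusted p = 1.19e-09). Ctgf, another, was called lower (-0.66 ± 0.20, adjusted p = 0.0149), a call that did not hold without 6 h replicate 3 (then adjusted p = 0.0578) and with a replicate block in the fit of the 8 libraries (adjusted p = 0.130). Of 25 Wnt pathway genes 6 fell, such as the matricellular target Wisp1 (-0.59), and 3 rose, led by the ligand Wnt16 (1.25 ± 0.089, adjusted p = 1.39e-11); these 24% and 12% stand beside 18.2% and 17.6% of all tested genes, and the 6 became 3 without 24 h replicate 1 or 6 h replicate 3 and 10 with the 8 libraries alone. Of 10 Notch pathway genes the receptor Notch3 rose (1.04) and Lfng, which modifies Notch, fell (-0.80), or 10% each way. Of 17 integrins 2 rose and 2 fell, or 11.8% each way. The Notch and integrin shares lie below the 17.6% and 18.2% of all tested genes.

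The matrix lists were mixed. Of 11 fibrillar collagens 4 were called higher and 1 lower, of 22 other collagens 4 and 4, of 28 genes of collagen processing and cross-linking 2 and 7, of 11 small leucine-rich proteoglycans 1 and 3, of 26 matrix glycoproteins 6 and 5, and of 15 elastic fibre genes 3 and 5, and of 14 genes of hyaluronan and its proteoglycans 3 and 3, where 17.6% of all tested genes were higher and 18.2% lower. Their medians, 0.25, 0.078, -0.042, -0.047, 0.053, -0.10 and -0.13 in the same order, lie between -0.13 and 0.25, against 0.0107 over all genes and 2.15 for the spindle list. Higher matrix levels at 24 h than at 6 h lay in single genes and in the summed fibrillar collagens, and not across these lists. Whether they make a matrix phase, as the question put it, was not tested. Fibrillar collagens, mostly Col1a1 and Col1a2, summed to 71090 to 74690 CPM at 24 h and 58200 to 64860 CPM at 6 h. The difference in this sum was not tested. Against 0 h, the log2 fold change of Col1a1 was -0.196 at 6 h and 0.092 at 24 h. Those of Col1a2 were -0.301 and -0.053, and those of Col3a1 0.312 and 1.225. Of the 11, 8 had a fold change above 0. The sums of collagen processing, small proteoglycan and glycoprotein genes were lower at 24 h, without overlap, and the sums of the other lists overlapped. The 4 tested chondrocyte and osteoblast markers, of which Spp1 held most of the level, summed to 1299 to 1349 CPM at 24 h and 1458 to 1600 CPM at 6 h, with 1 of 4, Runx2, called lower (-0.53); their part in the matrix results was not tested. Without 24 h replicate 3 or 4 or 6 h replicate 3 or 4 the 4 other collagens called higher became 2, and without 24 h replicate 3 the 5 glycoproteins called lower became 3.

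Among the collagens that rose, Col3a1 (chr1:45311538-45349706, plus strand), the chain of type III collagen, which is known from healing and growing tendon, had 5237, 5415, 5310 and 5384 CPM at 24 h, against 2840, 2663, 2969 and 2864 CPM at 6 h (0.91 ± 0.083, adjusted p = 1.42e-09). Col1a1, a chain of type I collagen, the bulk of tendon, had 31598, 31275, 33578 and 32097 CPM at 24 h, against 28221, 25774, 24648 and 26657 CPM at 6 h, without overlap (0.29 ± 0.11, adjusted p = 0.0467), a call that did not hold without any 1 library but 6 h replicate 1 (then adjusted p = 0.059 to 0.102). Col1a2 had 23996, 23131, 24456 and 24016 CPM at 24 h, against 21113, 20084, 18920 and 20388 CPM at 6 h (0.25 ± 0.089, adjusted p = 0.0306), a call that did not hold without any 1 library but 24 h replicate 2 or 6 h replicates 1 or 4 (then adjusted p = 0.0505 to 0.0773). At 0 h Col1a1 averaged 30157 CPM and Col1a2 24792 CPM. Col24a1 rose (0.70), Col5a1 had no call (0.11 ± 0.11, adjusted p = 0.482) and Col5a2 was called lower (-0.20 ± 0.065, adjusted p = 0.0187), a call that did not hold without 6 h replicate 1 (then adjusted p = 0.0553). The count of fibrillar collagens called higher ran from 2 to 8 over the alternative settings.

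Col14a1, a fibril-associated collagen of tendon, had 38.8, 44.7, 43.7 and 47.1 CPM at 24 h, against 13.5, 12.3, 18.8 and 16.4 CPM at 6 h (1.51 ± 0.14, adjusted p = 9.81e-09), and averaged 15.6 CPM at 0 h. Col6a3, of the pericellular type VI collagen, had 1708, 1552, 1728 and 1678 CPM at 24 h, against 1214, 1189, 847 and 1169 CPM at 6 h (0.59 ± 0.15, adjusted p = 0.00487). Several enzymes that finish collagen fell. Plod2, the telopeptide lysyl hydroxylase and a known hypoxia target, had 96.9, 93.5, 92.2 and 91.7 CPM at 24 h, against 210.02, 211, 215 and 223 CPM at 6 h (-1.198 ± 0.08, adjusted p = 4.95e-12). Lox, lysyl oxidase, which cross-links the fibril, had 8382, 7860, 7468 and 7359 CPM at 24 h, against 11003, 10697, 11157 and 10761 CPM at 6 h (-0.49 ± 0.055, adjusted p = 5.82e-08), and the prolyl hydroxylase subunit P4ha2 fell (-0.60). Among the proteoglycans Bgn fell (-0.22 ± 0.053, adjusted p = 0.00191), and Dcn averaged 1559 ± 61.3 CPM at 24 h and 1499 ± 106 CPM at 6 h (SD, n = 4 each; 0.056 ± 0.068, adjusted p = 0.564).

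Of the glycoproteins, Thbs1, an activator of latent TGF-beta, had 4019, 4008, 3901 and 3695 CPM at 24 h, against 6490, 5956, 6126 and 5974 CPM at 6 h (-0.65 ± 0.097, adjusted p = 1.11e-05). Thbs4, a tendon glycoprotein, fell (-0.47), and Fn1, fibronectin, averaged 11812 ± 174 CPM at 24 h and 11347 ± 1210 CPM at 6 h (SD, n = 4 each; 0.058 ± 0.12, adjusted p = 0.748). Postn, periostin, had 285, 363, 289 and 495 CPM at 24 h, against 176, 265, 209 and 208 CPM at 6 h. All 24 h libraries were above all 6 h libraries, with replicate 4 the highest, and the gene missed the threshold (0.74 ± 0.29, adjusted p = 0.0599), which it passed in 6 of the 16 alternative settings. Of the elastic fibre genes Eln, elastin, rose (0.76). Of 29 matrix proteases and inhibitors 8 rose, such as Adamts7 (0.97), and 4 fell, such as the urokinase Plau (-0.90). These 27.6% and 13.8% stand beside 17.6% and 18.2% of all tested genes. Over the alternative settings the higher count ran from 7 to 11 and the lower count from 3 to 8.

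Of 15 tendon identity genes 3 rose and 3 fell, which is 20% each way and near the 17.6% and 18.2% of all tested genes. Scx, scleraxis, the transcription factor that specifies tendon, had 1484, 1536, 1726 and 1562 CPM at 24 h, against 2341, 2172, 2163 and 2100 CPM at 6 h (-0.48 ± 0.11, adjusted p = 0.00146), and averaged 1736 CPM at 0 h. Mkx, mohawk, a second tendon transcription factor, had 209, 188, 197 and 197 CPM at 24 h, against 160.3, 176, 152 and 151 CPM at 6 h (0.31 ± 0.075, adjusted p = 0.00193), and Eya1 rose (0.36). Tnmd, tenomodulin, a late tendon marker, had 200.2, 170.5, 213 and 212 CPM at 24 h and 239, 270.3, 176 and 194 CPM at 6 h, with overlapping groups (-0.15 ± 0.17, adjusted p = 0.554).

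**Figure D4:**
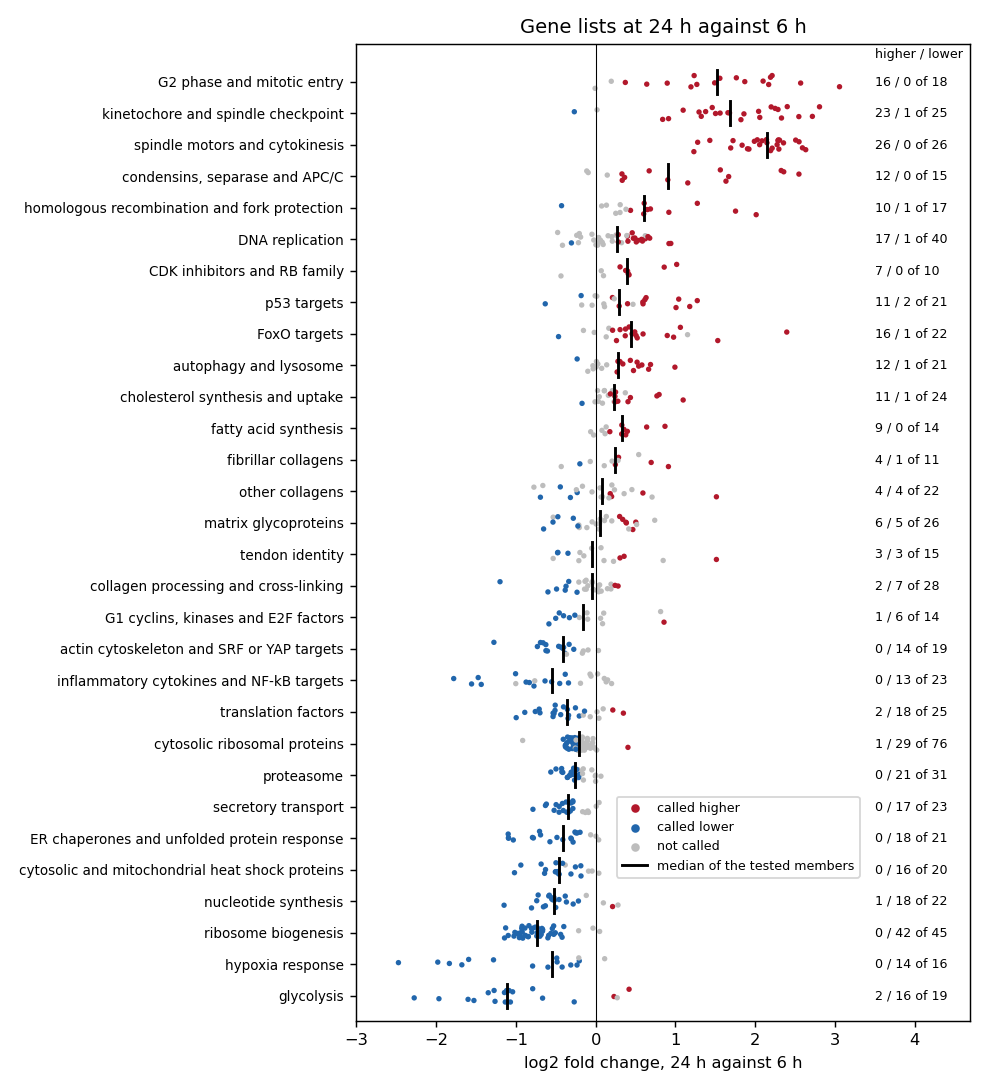
Log2 fold change at 24 h against 6 h (horizontal axis) of each tested member of 30 gene lists (rows), with called genes in colour, the median of each list as a black bar and the counts of members called higher and lower at the right. The mitotic lists lie to the right, glycolysis, hypoxia response and ribosome biogenesis to the left, and the matrix lists on both sides of 0.

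**Figure D5:**
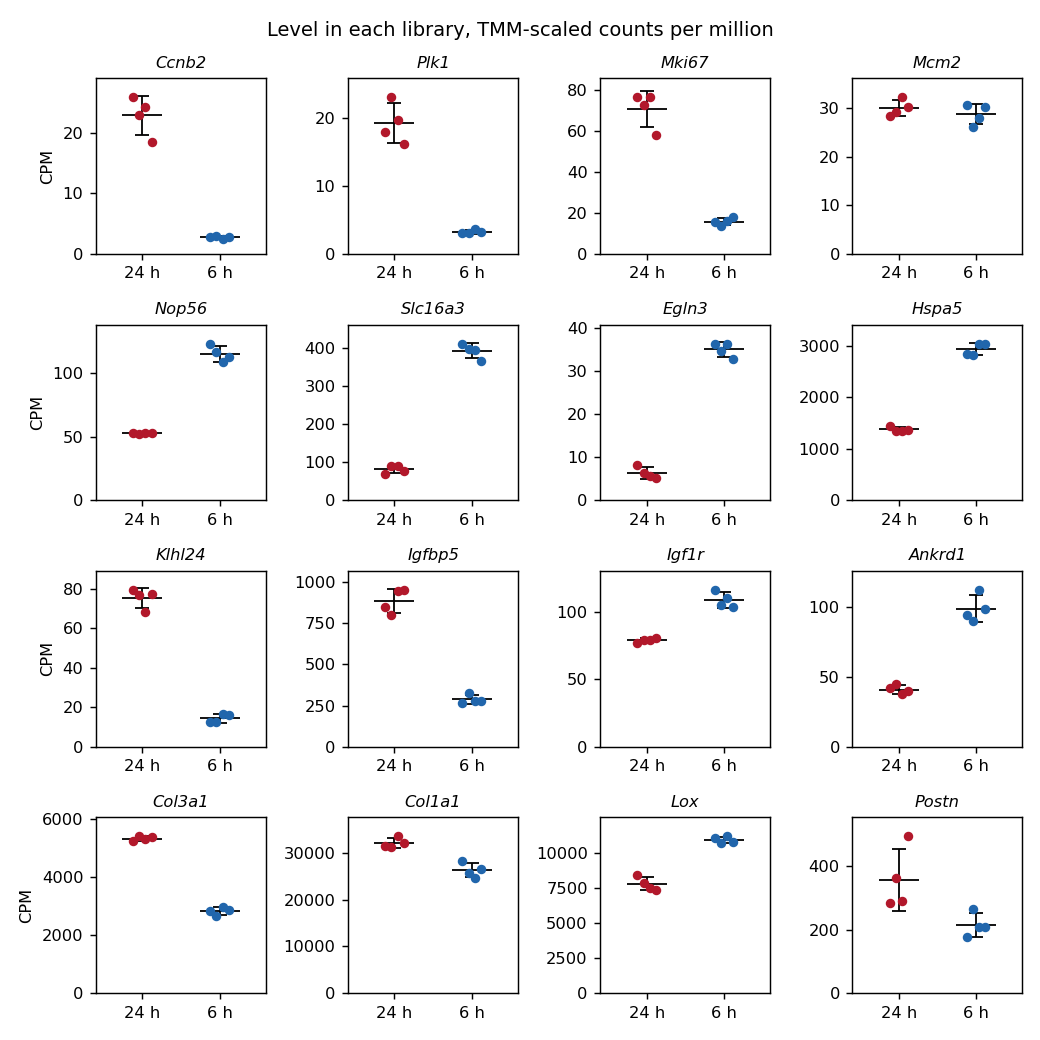
CPM in each library (vertical axis, from 0) of 16 genes at 24 h (left, red) and 6 h (right, blue), with the mean and SD of the 4 libraries in black. The groups do not overlap for any gene shown but Mcm2.

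Markers of other cell types were mostly low. The 7 Schwann cell markers tested summed to 10.1 to 15.6 CPM at 24 h and 5.72 to 20.9 CPM at 6 h, with 2 called higher, among them S100b at 4.01 ± 0.782 CPM at 24 h and 1.86 ± 0.526 CPM at 6 h (SD, n = 4 each). The 7 pericyte and smooth muscle markers summed to 39.3 to 51.2 CPM at 24 h and 30.7 to 36.1 CPM at 6 h, through Notch3 and Cspg4, with 2 called higher; Rgs5 and Myh11 stood below 3 CPM at both times, and Des had a call that did not hold without 24 h replicate 2 or 6 h replicate 4 (then adjusted p = 0.0611 to 0.343). The 5 endothelial markers summed to 22.5 to 27.3 CPM at 24 h and 8.55 to 14.8 CPM at 6 h. Tek, the angiopoietin receptor, was called higher, at 23.8 ± 2.37 CPM at 24 h and 8.09 ± 2.19 CPM at 6 h (SD, n = 4 each; 1.55 ± 0.12, adjusted p = 9.84e-11), and averaged 38.5 CPM at 0 h. Flt1, a receptor of vascular endothelial growth factor, was called lower, at 0.401 ± 0.206 CPM at 24 h and 1.47 ± 0.749 CPM at 6 h (SD, n = 4 each; -1.85 ± 0.38, adjusted p = 0.00034). Kdr, Vwf and Esam averaged under 2 CPM at both times and Pecam1 and Cdh5 were too low to test. The 2 keratinocyte markers summed to 3.81 to 4.95 CPM at 24 h and 2.26 to 3.36 CPM at 6 h. The 3 skeletal muscle markers summed to 2.44 to 11.2 CPM at 24 h and 1.58 to 3.35 CPM at 6 h. The 11.2 CPM was 24 h replicate 2 alone, with the other 24 h libraries at 2.44 to 2.58 CPM. Des was also highest in that library, at 2.59 CPM against 0.387 to 0.572 CPM in the other 24 h libraries. No lymphocyte or mast cell marker had enough counts to test. The part of these cells in the results was not tested.

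The authors' deposited table of the same contrast holds 12207 genes, of which 5096 have an FDR under 0.05, 2555 of them higher and 2541 lower at 24 h. Of these, 4941 were called here in the same direction and 0 in the opposite one, which is 97.0% of the genes called in the authors' deposited table and 95.6% of those called here.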

How the data were processed

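RNA from mouse tail tendon tenocytes was sequenced in 20 libraries, 4 at each of 5 times of IGF1. The authors deposited raw read counts per gene for 29986 genes, and a table of their own log2 fold changes with p-values and FDR values, per the file headers. Per the submitters' processing notes, STAR, FastQC and edgeR were used with build mm10, and no version is stated. For the counting tool, its annotation and its use of strand, the sources used here give nothing.

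The deposited counts were tested in edgeR 4.0.16 (limma 3.58.1, R 4.3.3): filterByExpr over the 5 times, TMM scaling, a robust quasi-likelihood fit of all 20 libraries without covariates, and the contrast of 24 h minus 6 h. Each SE is the absolute log2 fold change over the square root of F. A call needs a Benjamini-Hochberg p below 0.05 over all 14420 genes tested, two-sided. The biological coefficient of variation was 0.106. Simulated counts used each gene's mean over all 20 libraries at every time. At 24 h, 66 or 67 genes per fold size were changed, and 14207 were tested. The same fit called 71.6% of genes changed 1.5-fold, 80.6% of those changed 2-fold and 89.4% of those changed 4-fold. Of its 172 calls 11 were false. Far fewer genes were changed in the simulation than were called in the data.

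The members, the 61 gene lists and the tests were chosen with earlier results of these data known. The genes named were up to 15 per direction with the largest change among called genes of at least 5 CPM in the higher group without overlap, as many as 5 called members per list, and a fixed set. Members named for going against their list, markers of other cell types, the IGF binding proteins, the stanniocalcins and Smc4 were chosen after their values were seen. Not every gene that the rule allows is reported here. Replicate numbers did not pair the libraries: deviations of same-numbered libraries correlated at -0.0178 to 0.0183. The replicate pairs differed by 2.99 to 7.12 in chi-square per degree of freedom, above sampling noise. Each library counted as 1 sample. This spread cannot tell separate mice or cultures from technical replicates. Ribosomal protein and heat shock genes may share reads with pseudogenes, and their values are uncertain.

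Promoters are RefSeq's. Alternative settings were RLE scaling, dropping the count filter or asking for 1 CPM in 4 libraries, fits without the 2 h libraries or with the 8 libraries alone, a replicate block, DESeq2 1.42.0, leaving out each library, and a motif window of 150 bases.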

Additional observations from a re-analysis of the deposited data

Results flagged for a closer look

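Single libraries stood far from the other 3 of their time in 20 of the 372 groups of 4 tested with Dixon's ratio of gap to range, which is 5.38%; chance gives about 1 in 20. Of the 20, 6 fell in 6 h replicate 3, which was highest for Mvd (46.5 CPM), Dusp5 (10), Ptgs2 (97.0) and Notch3 (9.73) and lowest for Col6a3 (847) and Bgn (3049). The 6 h replicate 2 was highest for Igfbp5 (329) and Dcn (1658) and lowest for Cdk6 (27.6), and 6 h replicate 1 was lowest for Ifit2 (19.1) and 6 h replicate 4 for Igfbp6 (298.6). At 24 h, replicate 1 was highest for Trp53inp1 (182). Replicate 2 at 24 h was highest for Cdkn1a (301) and Des (2.59) and lowest for Nop56 (52.0). Replicate 3 at 24 h was highest for Tipin (24.99) and lowest for Mcm10 (4.57). Replicate 4 at 24 h was highest for Ereg (16.5) and Bgn (2874) and lowest for Cad (98.8). Of the calls of these genes, that of Des was lost on leaving out 24 h replicate 2.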

How the results depend on the processing

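The counts of called genes stayed within 1.5 times of those reported under all 16 alternatives. The total of 5166 became 5192 with RLE scaling, 4900 with no count filter, 5342 with DESeq2, 6337 without the 2 h libraries and 6667 with the 8 libraries alone, and 4421 to 4673 on leaving out each library in turn. With a replicate block it was 5111 over all libraries and 6515 over the 8; the numbers do not pair the libraries, since no pair's correlation passed 0.1. The share of calls that were higher ran from 45.7% to 50%. Of the 176 called genes named, 163 kept their call and direction throughout and 13 lost the call somewhere; none of them changed sign. Pfkm lost it with no count filter (adjusted p = 0.0886), Cdt1 (0.0642), Aars (0.246), Aen (0.0641), Prps2 (0.0671) and Sars (0.158) lost it there as well, and Aars also with the block (0.0625). Tgfb1 (0.0444) and Col5a1 (0.0451) passed the threshold with the 8 libraries alone, and Igfbp7 with no count filter (0.0279), without the 2 h libraries (0.0127), without 6 h replicate 4 (0.0247) and with the block over the 8 libraries (0.0128). Igfbp6, which had no call, ran from -0.0792 to 0.0189 on leaving out each library in turn. The causes were not tested. The medians of the growth factor, integrin, Notch, small proteoglycan and tendon identity lists changed sign in at least 1 alternative. In 150 bases the share of promoters fell to 57.5% for CCAAT, 11.1% for the ER stress element, 37.3% for the hypoxia core and 4.5% for the FoxO element, against 1.62% of all promoters. In simulated counts at the depth of these libraries 71.6% of genes changed 1.5-fold were called, against 89.4% of those changed 4-fold.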

Other observations

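Some of the genes with the largest changes lie on none of the lists. Fam84a had 6.97, 5.91, 8.06 and 8.97 CPM at 24 h, against 0.592, 1.45, 0.753 and 0.84 CPM at 6 h, with all 24 h libraries far above the others (log2 fold change 3.04 ± 0.32, adjusted p = 2.26e-08). It averaged 0.244 CPM at 0 h. Gpr35, a G protein-coupled receptor, had 1.39, 2.17, 1.94 and 2.13 CPM at 24 h, against 9.42, 8.61, 10.3 and 10.5 CPM at 6 h (-2.34 ± 0.24, adjusted p = 9.81e-09), and averaged 2.01 CPM at 0 h. Nptx1, a secreted pentraxin, had 5.51, 5.01, 4.69 and 3.55 CPM at 24 h, against 20.8, 20.7, 17.5 and 19.4 CPM at 6 h (-2.06 ± 0.15, adjusted p = 2.63e-11). The groups of these genes do not overlap.

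Mgarp (-1.96) and Higd1a (-1.85), both mitochondrial proteins known to rise in hypoxia, fell at 24 h, as did Angptl4, a secreted inhibitor of lipoprotein lipase (-1.75), and Serpind1, a serpin that inhibits thrombin (-1.69). Apln, the apelin ligand, had 9.69, 8.08, 10.5 and 10.3 CPM at 24 h, against 52.9, 57.1, 43.2 and 45.9 CPM at 6 h (-2.36 ± 0.20, adjusted p = 1.37e-08), and averaged 6.12 CPM at 0 h, 11.7 at 1 h and 29.8 CPM at 2 h.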
